A study of Mus musculus with 21 samples.

Results

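The genes described here are 8 feedback inhibitors of mitogen-activated protein kinase (MAPK) signaling, taken by gene symbol from the 23420 genes of the count table, and all 8 were found. They comprise the MAPK phosphatases Dusp1, Dusp2, Dusp4, Dusp5 and Dusp6, and the adaptors Spry1, Spry2 and Spred1. RNA was sequenced from 21 samples of sorted inflammatory monocytes (IMs) of mice, with the aim of finding what sets tumor IMs (TIMs) apart from IMs of the bone marrow (BM IMs). TIMs came from primary tumors (n = 5) and lymph node metastases (n = 5) of the LN2E1 model, in which 500000 cells of a metastatic lung squamous carcinoma line were placed in the lung of FVB mice, and from lungs (n = 5) of the LN4K1 model, in which 300000 cells of another squamous line were given to DBA2 mice through a vein. BM IMs came from FVB (n = 3) and DBA2 (n = 3) mice that carried no tumor. The study's methods describe the FVB mice as adult. No group carried an engineered allele or received a drug, and each model rested on a single cell line. Strain, line, route of injection and tissue changed together between the models. The labels number the samples within a group but do not say whether each came from 1 mouse, and the study's methods call the libraries of a group technical replicates. The p-values therefore measure the spread between these libraries, which may be technical, and n counts libraries and not mice. Cells were enriched with a monocyte isolation kit, by sorting or by both, and IMs were gated as live cells positive for CD45 and CD11b, high in Ly6C and negative for Siglec-F and Ly6G.

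MAPK cascades pass signals from receptors through Ras, RAF and MEK to ERK, or through parallel kinases to p38 and JNK, and their activity in monocytes shapes cytokine output, survival and maturation. The dual-specificity phosphatases remove phosphate from both the threonine and the tyrosine of an activated MAPK, while Sprouty and SPRED proteins act upstream, between receptors and RAF. Many of these inhibitors are transcribed in response to the cascade they restrain, and their transcripts are therefore often read beside MAPK signaling, although a transcript level is not a measure of kinase activity.

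Total counts lay between 80772922 and 101043568 per library, and between 11047 and 14512 genes reached 10 counts. Lymph node replicate 1 had the fewest genes, and LN4K1 lung replicate 3 differed most from the others of its group. The sort markers Ptprc (CD45), Itgam (CD11b) and Ly6c2 were read in every library, with Ptprc at 639 ± 21.4 CPM (counts per 1e6 counts, scaled with TMM factors; mean ± SD) in FVB BM IMs and at 1923 ± 117 CPM in primary tumor TIMs, and Ly6c2 at 3037 ± 581 and 1246 ± 111 CPM, respectively. A list of 7 IM markers summed to between 51430 and 69274 CPM in FVB BM IMs. Its sum was between 38651 and 49390 CPM in primary tumor and between 38008 and 51255 CPM in lymph node TIMs. In the DBA2 strain it was between 48184 and 53846 CPM in BM IMs and between 67357 and 122472 CPM in LN4K1 lung TIMs. Markers of other cells differed between groups, although the gate would leave out fibroblasts, endothelial cells and tumor cells (no CD45), neutrophils (Ly6G) and eosinophils (Siglec-F). The 7 fibroblast genes summed to between 380 and 1132 CPM in primary tumor TIMs, between 12.2 and 107 CPM in lymph node TIMs, between 1.81 and 42.7 CPM in LN4K1 lung TIMs and at most 9.24 CPM in BM IMs, where 5 of 7 in FVB and 4 of 7 in DBA2 mice lay at 3 counts or fewer in every library. The 5 measured T cell genes summed to between 1.05 and 2.53 CPM in FVB BM IMs, between 8.71 and 27.4 CPM in those of primary tumors and between 3.41 and 54.5 CPM in lymph node TIMs, while the 7 neutrophil genes summed to between 2490 and 3306 CPM in FVB BM IMs and to at most 1426 CPM in LN2E1 primary tumor TIMs. Of these 7 neutrophil genes, 4 fell and 2 rose in primary tumor TIMs in the edgeR test described below. The 7 squamous epithelial genes summed to at most 2.06 CPM in BM IMs, and to between 55.0 and 93.3 CPM in primary tumor, 9.89 and 140 CPM in lymph node and 1.19 and 72.4 CPM in LN4K1 lung TIMs. In the DBA2 comparison, NK cell genes summed to at most 0.213 CPM in BM IMs and to between 12.3 and 22.6 CPM in TIMs, and T cell genes to at most 2.07 CPM and to between 7.12 and 24.0 CPM, while neutrophil genes lay between 864 and 1224 CPM in BM IMs and between 916 and 1718 CPM in LN4K1 lung TIMs. Most neutrophil genes did not follow this sum: 4 of 7 fell and 1 rose in the edgeR test described below, with a median log2 fold change of -1.86. Endothelial genes summed to at most 13.7 CPM in BM IMs and 19.5 CPM in LN4K1 lung TIMs, and to between 59.5 and 128 CPM in the LN2E1 groups. Eosinophil genes summed to between 449 and 1200 CPM in BM IMs and to at most 77.9 CPM in TIMs, and macrophage genes to between 864 and 2055 CPM in BM IMs and between 2303 and 5519 CPM in TIMs. In the same test, however, only 3 of 7 macrophage genes rose in primary tumor, 2 in lymph node and 2 in LN4K1 lung TIMs, and 1 fell in the last. Alveolar macrophage genes summed to between 2935 and 3597 CPM in FVB BM IMs and between 3834 and 9380 CPM in primary tumor TIMs. Their sum was between 734 and 2625 CPM in DBA2 BM IMs and between 2315 and 5505 CPM in LN4K1 lung TIMs. Only 1 of 5 tested rose in either comparison. The part of these cells in the values below was not tested, and in sorted bulk samples fewer cells of a type and less RNA per cell cannot be told apart.

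On the scale of CPM per kb of exon, which allows genes to be compared, Dusp1 was the most abundant of the 8 genes in FVB BM IMs, at 708 CPM per kb, followed by Dusp6 at 46.8 and Dusp2 at 5.59 CPM per kb. Dusp5, Spry1, Dusp4, Spred1 and Spry2 lay at 0.880, 0.356, 0.221, 0.203 and 0.0556 CPM per kb. Dusp1 alone took between 0.179% and 0.765% of all counts in a library and ranked between 3 and 47 among all genes by count. In primary tumor TIMs, Dusp5 reached 29.4 CPM per kb and stood next after Dusp1 and Dusp6, above Dusp2 at 5.15 CPM per kb.

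**Figure D1:**
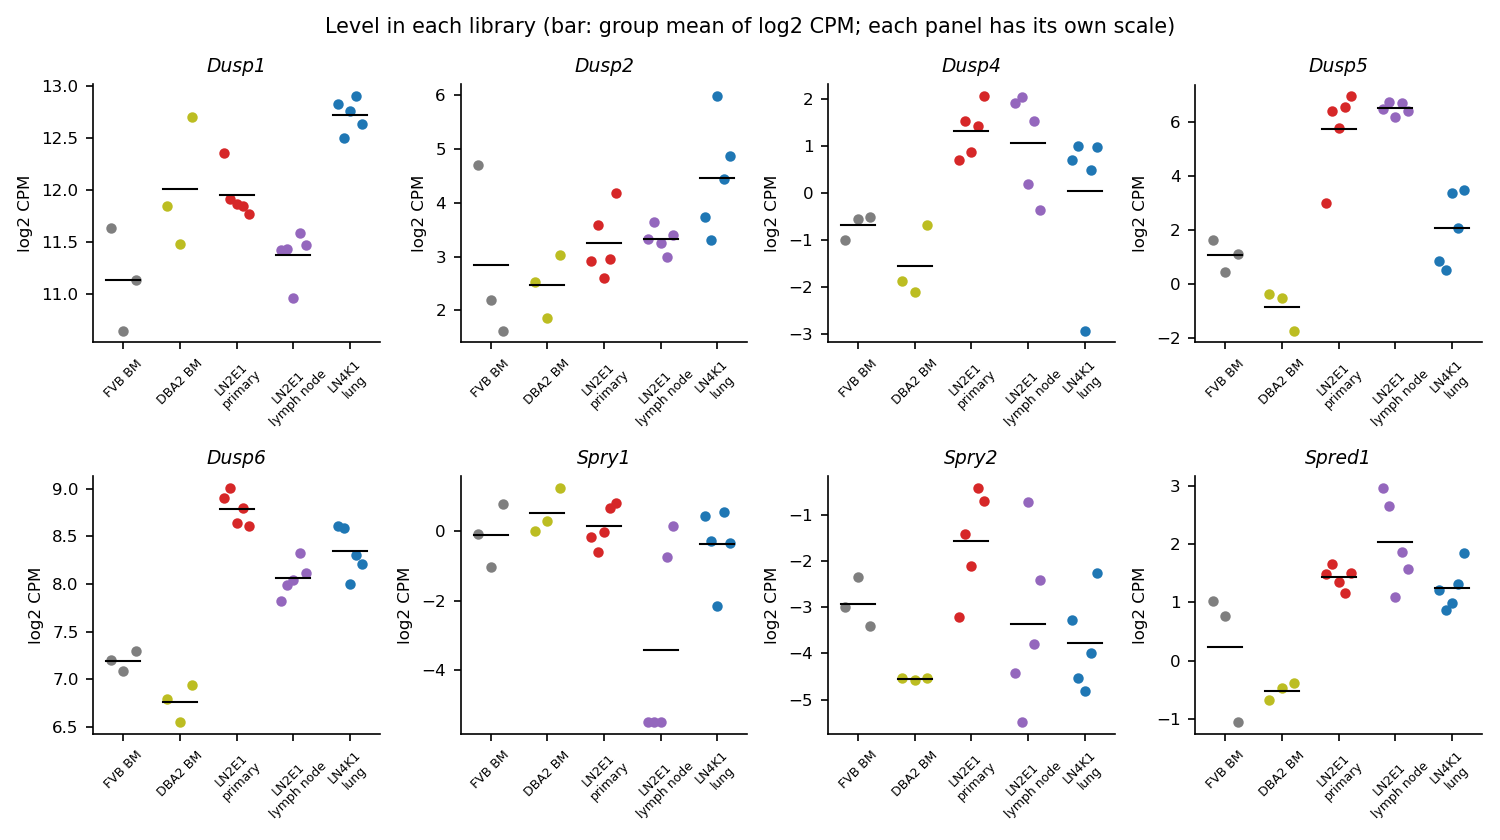
Level of the 8 genes in each of the 21 libraries as log2 CPM (vertical axis; a different scale in each panel) by group, with the group mean of log2 CPM as a bar. Dusp6 in the 3 TIM groups lay at 227 CPM or more in every library and above every BM IM library, Dusp5 was high in the LN2E1 groups with primary tumor replicate 1 as an exception, and Spry2 in most groups and Spry1 in 3 lymph node libraries lay near the limit of the counts.

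TIMs were compared with BM IMs of the same strain to ask which of the inhibitors differ in tumors. In primary tumor TIMs, 4 of 8 genes rose (Dusp1, Dusp4, Dusp5 and Dusp6) and none fell, while 33.3% of all 14569 genes tested rose, 28.6% fell and thus 61.9% changed in either direction at an adjusted p under 0.05 (quasi-likelihood test of edgeR, adjusted by Benjamini-Hochberg, as for every adjusted p below). In lymph node TIMs, 2 of 8 rose (Dusp5 and Dusp6) and none fell, beside 20.2% of 13273 genes that rose, 17.2% that fell and 37.4% in both directions. In LN4K1 lung TIMs, 4 of the 7 genes tested rose (Dusp2, Dusp5, Dusp6 and Spred1) and none fell, beside 13.9% of 13624 genes that rose, 11% that fell and 24.9% in both directions. Spry2 did not pass the filter on low counts in that comparison. DEGs, for which the adjusted p had to be under 0.0001 with a log2 fold change beyond 1 in either direction, were limited to Dusp6 in primary tumor TIMs (12.9% of all genes were DEGs) and Dusp5 in lymph node TIMs (5.71%), with none in LN4K1 lung TIMs (2.97%). Dusp5 and Dusp6 rose in all 3 comparisons, as did 1015 of the 12782 genes tested in all of them (7.94%), and the first 2 comparisons share the FVB BM IM libraries. Without LN4K1 lung replicate 3, 5 of 7 genes rose in the lung comparison, and without lymph node replicate 1 the count in the lymph node comparison was 2.

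**Figure D2:**
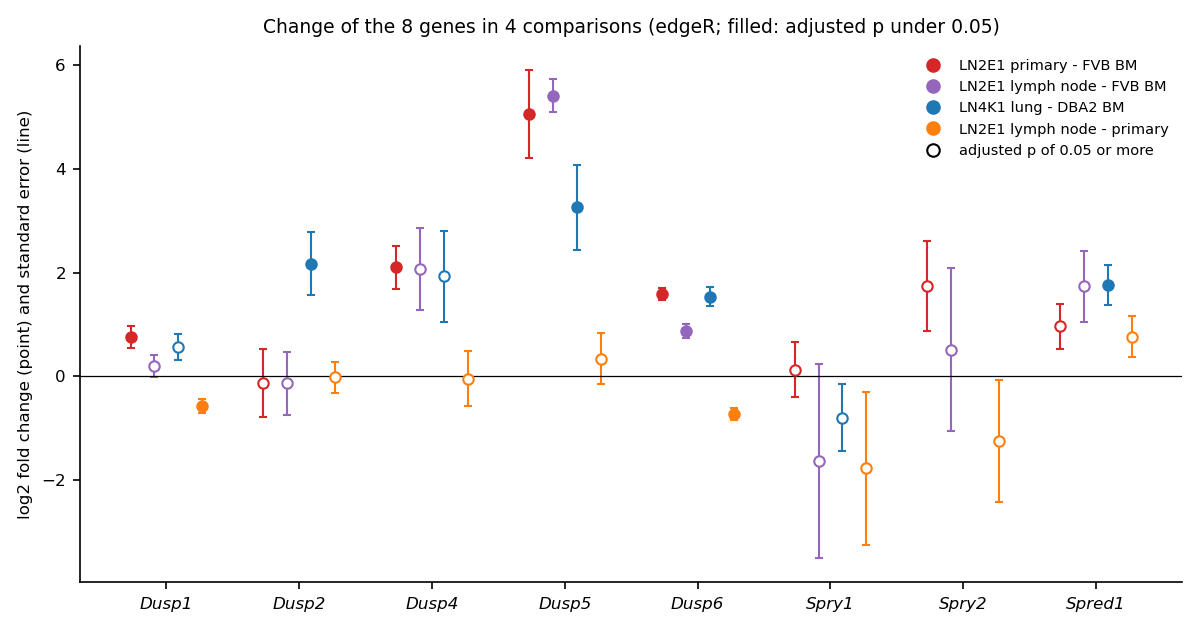
Log2 fold change (vertical axis) of each gene (horizontal axis) in 4 comparisons, as a point with its standard error as a line; filled points have an adjusted p under 0.05. Dusp5 and Dusp6 are filled and above 0 in the 3 comparisons with BM IMs, and Dusp1 and Dusp6 are filled and below 0 for lymph node against primary tumor TIMs.

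Promoter sequence is shown for the 2 genes that rose in all 3 comparisons and for Dusp1, the most abundant of the 8, because these genes differed in the sequence motifs found next to their start sites. Each line gives 100 bases, from 150 to 51 bases before the RefSeq start site of GRCm38.p6, 5′ to 3′ on the strand of the gene, with CRE and CArG matches in capitals. The stretches are chr17:26508523-26508622 on the minus strand for Dusp1, and chr19:53528995-53529094 for Dusp5 and chr10:99263081-99263180 for Dusp6, both on the plus strand.
Dusp1: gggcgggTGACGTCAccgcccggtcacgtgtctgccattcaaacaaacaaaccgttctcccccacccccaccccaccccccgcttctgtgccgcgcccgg
Dusp5: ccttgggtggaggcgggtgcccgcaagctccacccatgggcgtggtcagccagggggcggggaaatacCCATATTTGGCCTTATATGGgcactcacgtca
Dusp6: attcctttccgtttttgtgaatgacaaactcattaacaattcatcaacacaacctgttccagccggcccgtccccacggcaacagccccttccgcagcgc
The capitals in Dusp1 mark a cAMP response element (CRE, TGACGTCA, its own reverse complement) that begins 143 bases before the start, and those in Dusp5 mark a pair of adjoining CArG boxes, the motif of serum response factor, at 82 to 73 and 72 to 63 bases before the start. In the 250 bases before the start, 1 of the 7 members with a promoter entry held a CRE and 1 held a CArG box, beside 1.55% and 1.47% of 32851 mouse promoters, both strands being searched. An AP-1 site (TGANTCA), an ETS site (CCGGAAGT) and a TATA box (TATAAA) were in none of the 7, beside 6.75%, 2.88% and 12.4% of promoters, and a loose NF-kB motif (GGG and CC parted by any 5 bases) was in 7 of 7 beside 45.8%. The fixed letters of the loose motif are all G or C. The same 100-base stretches of the 7 genes were between 52% and 79% G or C, and the shares of all promoters were not matched for this. In Dusp5, both matches to this loose motif end within the first CArG box. The Dusp5 stretch lies wholly within an exon of a gene in the GENCODE vM21 annotation. These matches describe letters only, and binding was not measured.

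Dusp6, a cytoplasmic phosphatase that is selective for ERK, lies at chr10:99263231-99267489 on the plus strand (GRCm38). Its level was 147, 136 and 157 CPM in the FVB BM IM libraries and 111, 93.7 and 123 CPM in those of DBA2 mice. It was 480, 516, 399, 444 and 390 CPM in primary tumors, 227, 254, 263, 322 and 278 CPM in lymph node TIMs, and 390, 385, 256, 317 and 297 CPM in LN4K1 lung TIMs. Every TIM library was above every BM IM library, lymph node and primary tumor libraries did not overlap, and the LN4K1 lung libraries overlapped those of the lymph node. Dusp6 rose 3.01-fold in primary tumor TIMs (log2 fold change 1.59, SE 0.12, adjusted p = 4.06e-06), 1.84-fold in lymph node TIMs (0.88, SE 0.13, adjusted p = 0.000629) and 2.89-fold in LN4K1 lung TIMs (1.53, SE 0.18, adjusted p = 0.000260). These calls held without any single library and under every alternative tried, and the coefficient of variation within a group was between 7.30% and 17.6%.

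Dusp5, a nuclear phosphatase that is selective for ERK, lies at chr19:53529109-53542431 on the plus strand and had the largest fold change of the 8 genes in each comparison of TIMs with BM IMs. Its level was 3.07, 1.32 and 2.14 CPM in FVB BM IMs, against 7.88, 84.6, 55.1, 93.0 and 123 CPM in primary tumor TIMs, with 88.8, 107, 72.2, 104 and 85.3 CPM in lymph node TIMs. Both TIM groups were above the BM IMs without overlap, but primary tumor replicate 1 stood far below the other libraries of its group. Dusp5 rose 33.1-fold in primary tumor TIMs (log2 fold change 5.05, SE 0.85, adjusted p = 0.000773) and 42.3-fold in lymph node TIMs (5.40, SE 0.32, adjusted p = 1.71e-06).

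In the DBA2 strain, Dusp5 was at 0.746, 0.677 and 0.276 CPM in BM IMs and at 1.76, 1.41, 10.3, 4.12 and 11.0 CPM in LN4K1 lung TIMs, again without overlap. The rise was 9.56-fold (log2 fold change 3.26, SE 0.82, adjusted p = 0.0181). The group mean in LN4K1 lung TIMs, 5.71 ± 4.62 CPM, stood beside 72.7 ± 43.6 CPM in primary tumor TIMs, and the highest LN4K1 lung library was above the lowest primary tumor library. The lung call was lost when any of the 3 DBA2 BM IM libraries was left out (adjusted p between 0.0532 and 0.0780, log2 fold change between 2.93 and 3.50). The exons of Dusp5 share 547 bases with an antisense gene, AC137853.2, and because libraries were not stranded, reads of the pair in these bases cannot be told apart.

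Dusp1, a nuclear phosphatase of p38, JNK and ERK and an immediate early gene, lies at chr17:26505590-26562128 on the minus strand in GENCODE vM21, where 11 exon bases overlap Ergic1 on the opposite strand. The RefSeq start used for the promoter stretch above, at 26508472, lies inside this interval, so the 2 annotations differ in where the gene begins. Its level was 3179, 1601 and 2248 CPM in FVB BM IMs and 3678, 2856 and 6657 CPM in DBA2 BM IMs. It was 5232, 3866, 3729, 3692 and 3501 CPM in primary tumors, 2738, 2762, 1998, 3076 and 2847 CPM in lymph node TIMs, and 7253, 5779, 6935, 7659 and 6371 CPM in LN4K1 lung TIMs. Primary tumor libraries lay above all FVB BM IM libraries, lymph node libraries overlapped them, and DBA2 BM IM replicate 3 lay within the range of the lung libraries. Dusp1 rose 1.69-fold in primary tumor TIMs (log2 fold change 0.76, SE 0.21, adjusted p = 0.0117). The log2 fold change was 0.20 (SE 0.21, adjusted p = 0.499) in lymph node TIMs and 0.57 (SE 0.25, adjusted p = 0.132) in LN4K1 lung TIMs, where it became 1.0 (adjusted p = 0.00528) without DBA2 BM IM replicate 3.

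Warm enzymatic digestion of tissue is known to induce immediate early and heat shock genes, and Dusp1 belongs to the same class. The study's methods describe mincing and warm digestion for lung tissue, so tissue and digestion cannot be told apart in the comparisons with BM IMs. A list of 16 such genes, without Dusp1, summed to between 9945 and 14169 CPM in FVB BM IMs, between 11313 and 15750 CPM in lymph node TIMs, between 20243 and 23581 CPM in primary tumor TIMs, between 15083 and 26155 CPM in DBA2 BM IMs and between 22991 and 41182 CPM in LN4K1 lung TIMs. DBA2 BM IM replicate 3, the highest of its group for Dusp1, had the highest sum of its group, and FVB BM IM replicate 2, the lowest for Dusp1, had the lowest. The LN4K1 lung libraries differed in order: replicate 2 was lowest of its group for Dusp1, at 5779 CPM, and highest for the sum, at 41182 CPM. Lung replicate 3, at 6935 CPM for Dusp1, had the lowest sum of its group, at 22991 CPM. Of the 16 genes, 12 rose and 2 fell in primary tumor TIMs, 8 rose and 2 fell in lymph node TIMs, and 8 rose and none fell in LN4K1 lung TIMs. Socs3, an inhibitor of cytokine receptors, rose most in each of them, with log2 fold changes of 8.86 (SE 0.36), 8.15 (SE 0.39) and 7.98 (SE 0.86) and adjusted p of 1.67e-07, 5.30e-07 and 0.000150. The methods do not say how lymph nodes were digested. The sums of the 16 genes overlapped between lymph node TIMs and FVB BM IMs, and Dusp6 was higher in the former without overlap. The part of digestion in the values of either gene was not tested.

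**Figure D3:**
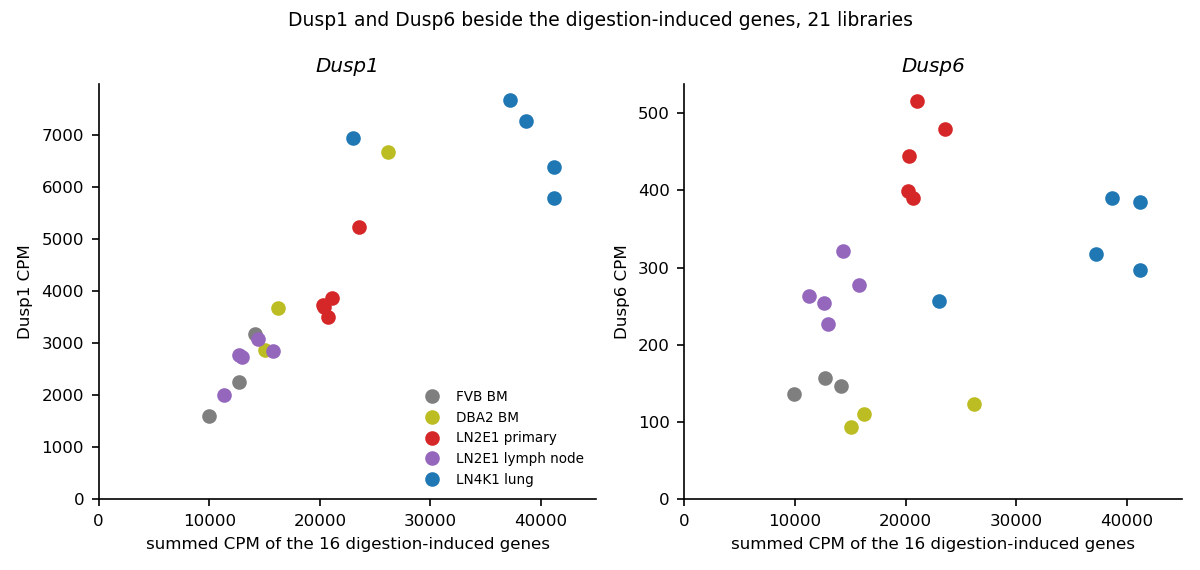
Dusp1 (left) and Dusp6 (right) in CPM on the vertical axis against the summed CPM of 16 digestion-induced genes on the horizontal axis, with 1 point for each of the 21 libraries, colored by group. Dusp1 and the sum are lowest in FVB BM IM replicate 2, at 1601 and 9945 CPM. Within LN4K1 lung TIMs, replicate 2 has the lowest Dusp1, at 5779 CPM, and the highest sum, at 41182 CPM. Dusp6 lies between 227 and 322 CPM in lymph node TIMs and between 136 and 157 CPM in FVB BM IMs. The part of digestion in these values was not tested.

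Dusp2, an inducible nuclear phosphatase of leukocytes, lies at chr2:127336159-127338376 on the plus strand. It was at 5.71, 3.63 and 8.15 CPM in DBA2 BM IMs and at 13.3, 9.91, 63.2, 21.8 and 29.4 CPM in LN4K1 lung TIMs, which lay above all of them. It rose 4.49-fold there (log2 fold change 2.17, SE 0.61, adjusted p = 0.0284), but the call was lost when 1 DBA2 BM IM library, whichever, was left out or without lung replicate 5 (adjusted p between 0.0559 and 0.113). In the FVB strain the level was 26.0, 4.53 and 3.05 CPM in BM IMs, 7.55, 12.0, 6.04, 7.74 and 18.2 CPM in primary tumors, and 10.0, 12.5, 9.45, 7.98 and 10.6 CPM in lymph node TIMs. FVB BM IM replicate 1 was above every LN2E1 library and the other two were below every one of them. With all libraries the log2 fold change was -0.12 (SE 0.66, adjusted p = 0.885) in primary tumor and -0.13 (SE 0.60, adjusted p = 0.888) in lymph node TIMs, and without FVB BM IM replicate 1 it was 1.45 (adjusted p = 0.0252) and 1.42 (adjusted p = 0.0241).

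Dusp4, a nuclear phosphatase close to Dusp1, lies at chr8:34807297-34819894 on the plus strand and had between 8 and 359 counts per library. It was at 0.480, 0.663 and 0.676 CPM in FVB BM IMs, 1.62, 2.87, 1.81, 2.69 and 4.17 CPM in primary tumors, and 3.79, 4.12, 1.12, 2.88 and 0.758 CPM in lymph node TIMs. Both TIM groups were above the BM IMs without overlap, the lymph node libraries being more spread. Dusp4 rose 4.28-fold in primary tumor TIMs (log2 fold change 2.10, SE 0.41, adjusted p = 0.00163). In lymph node TIMs the log2 fold change of 2.07 (SE 0.80) missed the threshold (adjusted p = 0.0670) and passed it without lymph node replicate 5 (adjusted p = 0.0406). The level was 0.249, 0.209 and 0.606 CPM in DBA2 BM IMs and 1.61, 1.99, 0.108, 1.38 and 1.95 CPM in LN4K1 lung TIMs. Lung replicate 3, with 8 counts, was below all DBA2 BM IM libraries and the other 4 lung libraries were above them. The same library had squamous genes at 1.19 CPM in sum, against between 40.1 and 72.4 CPM in the other 4, and the 7 IM markers at 122472 CPM, against between 67357 and 82139 CPM, and the part of these cells in its Dusp4 value was not tested. The log2 fold change was 1.93 (SE 0.88, adjusted p = 0.146), and 2.23 (adjusted p = 0.00807) without that library.

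Spred1, which brings the Ras inhibitor neurofibromin to the membrane, lies at chr2:117121374-117182279 on the plus strand. It was at 2.0, 1.67 and 0.460 CPM in FVB BM IMs, 2.79, 3.14, 2.52, 2.20 and 2.81 CPM in primary tumors, and 7.78, 6.22, 2.12, 3.63 and 2.94 CPM in lymph node TIMs. Neither TIM group overlapped the BM IMs, yet the log2 fold changes of 0.96 (SE 0.44, adjusted p = 0.0811) and 1.73 (SE 0.68, adjusted p = 0.0716) missed the threshold in edgeR. DESeq2 passed Spred1 in primary tumor TIMs (adjusted p = 0.0380). In the DBA2 strain it was at 0.601, 0.697 and 0.744 CPM in BM IMs and at 2.30, 1.8, 1.96, 2.46 and 3.57 CPM in LN4K1 lung TIMs. It rose 3.39-fold there (log2 fold change 1.76, SE 0.39, adjusted p = 0.00931), without overlap, and the call held without any single library. Counting all 8 genes, TIM libraries lay above those of BM IMs without overlap for 5 of 8 in primary tumors, 4 of 8 in lymph nodes and 4 of 7 in LN4K1 lungs, beside 30.6%, 19.7% and 19.2% of all genes tested.

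Spry1 and Spry2, which restrain Ras and RAF downstream of receptor tyrosine kinases, passed in no comparison with BM IMs, and Spry2 was near the limit of detection. Spry1, at chr3:37639947-37644598 on the plus strand, was at 0.925, 0.469 and 1.71 CPM in FVB BM IMs, 0.975, 1.21 and 2.36 CPM in DBA2 BM IMs, 0.875, 0.634, 0.970, 1.55 and 1.74 CPM in primary tumor TIMs and 1.34, 0.805, 0.203, 1.43 and 0.763 CPM in LN4K1 lung TIMs. All these groups overlapped. In lymph node TIMs it had 0 counts in replicates 1, 2 and 3, which allows levels up to 0.0363, 0.0396 and 0.0355 CPM, respectively, for counting error only, and it had 47 and 92 counts in replicates 4 and 5. The log2 fold changes were 0.13 (SE 0.53, adjusted p = 0.843) in primary tumor, -1.63 (SE 1.86, adjusted p = 0.540) in lymph node and -0.79 (SE 0.64, adjusted p = 0.415) in LN4K1 lung TIMs. Over the alternatives the lymph node value lay between -9.45 with the replicate block and -0.70 with DESeq2's shrinkage, and between -2.82 and -1.05 without any 1 library. Its exons share 710 bases with Gm42922 on the opposite strand.

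Spry2, at chr14:105891947-105896819 on the minus strand, had 9, 17 and 8 counts in FVB BM IMs and 2 counts in each DBA2 BM IM library. It had 8, 31, 18, 66 and 51 counts in primary tumor TIMs, 2, 0, 49, 4 and 14 counts in lymph node TIMs, and 7, 2, 1, 4 and 17 counts in LN4K1 lung TIMs. The groups overlapped in the FVB strain, and the log2 fold changes were 1.74 (SE 0.86, adjusted p = 0.106) in primary tumor and 0.51 (SE 1.57, adjusted p = 0.833) in lymph node TIMs. Neither passed, but the primary tumor value did so without primary tumor replicate 1 (adjusted p = 0.0494). With counts this low and this spread between libraries, a difference could have been missed.

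The LN2E1 groups were compared with each other to ask whether TIMs differ between a primary tumor and its lymph node metastases. Of the 8 genes, 2 fell in lymph node TIMs and none rose, beside 5.55% of 13488 genes that fell and 11.7% that changed. Dusp6 was 1.64-fold lower (log2 fold change -0.72, SE 0.11, adjusted p = 0.00308) and Dusp1 1.48-fold lower (-0.56, SE 0.14, adjusted p = 0.0223), neither with overlap between libraries, as for 8.87% of all genes. Both calls held without any single library, but that of Dusp1 was lost when all 5 groups were fitted together (adjusted p = 0.0572) and with the replicate block (adjusted p = 0.0643). The digestion-induced genes moved in the same direction, 7 of 16 falling and 1 rising, and the ranges of their sum given above did not overlap. Fibroblast genes also fell, in 5 of 7. The largest difference among members that did not pass was that of Spry1, at -1.77 (SE 1.47, adjusted p = 0.501), which lay between -4.94 and -0.14 over the alternatives.

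BM IMs of the strains differed in 1 of 7 genes tested, beside 21.1% of 12905 genes that differed and 9.57% that were lower in DBA2 mice. Dusp5 was 3.77-fold lower in DBA2 than in FVB mice (log2 fold change -1.92, SE 0.56, adjusted p = 0.0423), without overlap, but the call was lost without either FVB replicate 1 or 2 or any DBA2 replicate (adjusted p between 0.0624 and 0.159). Dusp6 was also lower without overlap (-0.40, SE 0.12, adjusted p = 0.0524), as were 21.6% of all genes by overlap alone, and Dusp1 was at 0.93 (SE 0.33, adjusted p = 0.0794). The change in primary tumor TIMs was then set against that in LN4K1 lung TIMs as an interaction, which none of the 8 genes passed in edgeR, beside 26.5% of 15182 genes. Dusp2 alone had an unadjusted p under 0.05 (difference of log2 fold changes -2.27, SE 0.94, adjusted p = 0.0853), and DESeq2 called 1 gene, Dusp2 (adjusted p = 0.0406). The difference for Dusp2 rested in part on FVB BM IM replicate 1, without which it was -0.80 (adjusted p = 0.526). For Dusp5 the difference was 1.82 (SE 1.07, adjusted p = 0.225) and for Dusp6 0.07 (SE 0.21, adjusted p = 0.861), values that do not show the changes to be equal.

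Other genes of both families were read to place the 8 among their relatives. Of the 5 other MAPK phosphatases, 4 of 5 rose in primary tumor TIMs, 2 of 5 in lymph node TIMs and 1 of 4 tested in LN4K1 lung TIMs, and none fell. Of all genes tested, 33.3%, 20.2% and 13.9% rose in these comparisons. Dusp16, a phosphatase of JNK and p38, had the largest change. It was at 0.251, 0.0204 and 0.153 CPM in FVB BM IMs, 18.9, 19.3, 14.7, 18.6 and 17.2 CPM in primary tumors, and 15.5, 28.6, 42.3, 36.8 and 29.9 CPM in lymph node TIMs. It was at 0.166, 0.379 and 0.234 CPM in DBA2 BM IMs and at 6.51, 3.62, 8.91, 6.99 and 3.66 CPM in LN4K1 lung TIMs, so that all TIM libraries lay above all BM IM libraries. The log2 fold changes were 6.96 (SE 0.53, adjusted p = 4.57e-06), 7.76 (SE 0.73, adjusted p = 2.89e-05) and 4.44 (SE 0.50, adjusted p = 0.000187).

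Dusp10, another phosphatase of JNK and p38, rose by log2 fold changes of 2.14 (SE 0.20, adjusted p = 1.45e-05) and 2.86 (SE 0.25, adjusted p = 1.71e-05) in the LN2E1 groups, and was at 0.69 (SE 0.23, adjusted p = 0.0522) in LN4K1 lung TIMs. In contrast to Dusp1 and Dusp6, Dusp10 and Dusp16 rose from primary tumor to lymph node TIMs, by 0.70 (SE 0.15, adjusted p = 0.0131) and 0.80 (SE 0.23, adjusted p = 0.0427) on the log2 scale. For Dusp16 the libraries overlapped, with lymph node replicate 1 at 15.5 CPM and primary tumors between 14.7 and 19.3 CPM. Alternative fits were read only for the 8 members, so how firm these calls are was not tested. Dusp10 and Dusp16 also passed the interaction, with differences of 1.47 (SE 0.29, adjusted p = 0.00234) and 2.53 (SE 0.66, adjusted p = 0.0115) higher in the LN2E1 primary tumors.

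**Figure D4:**
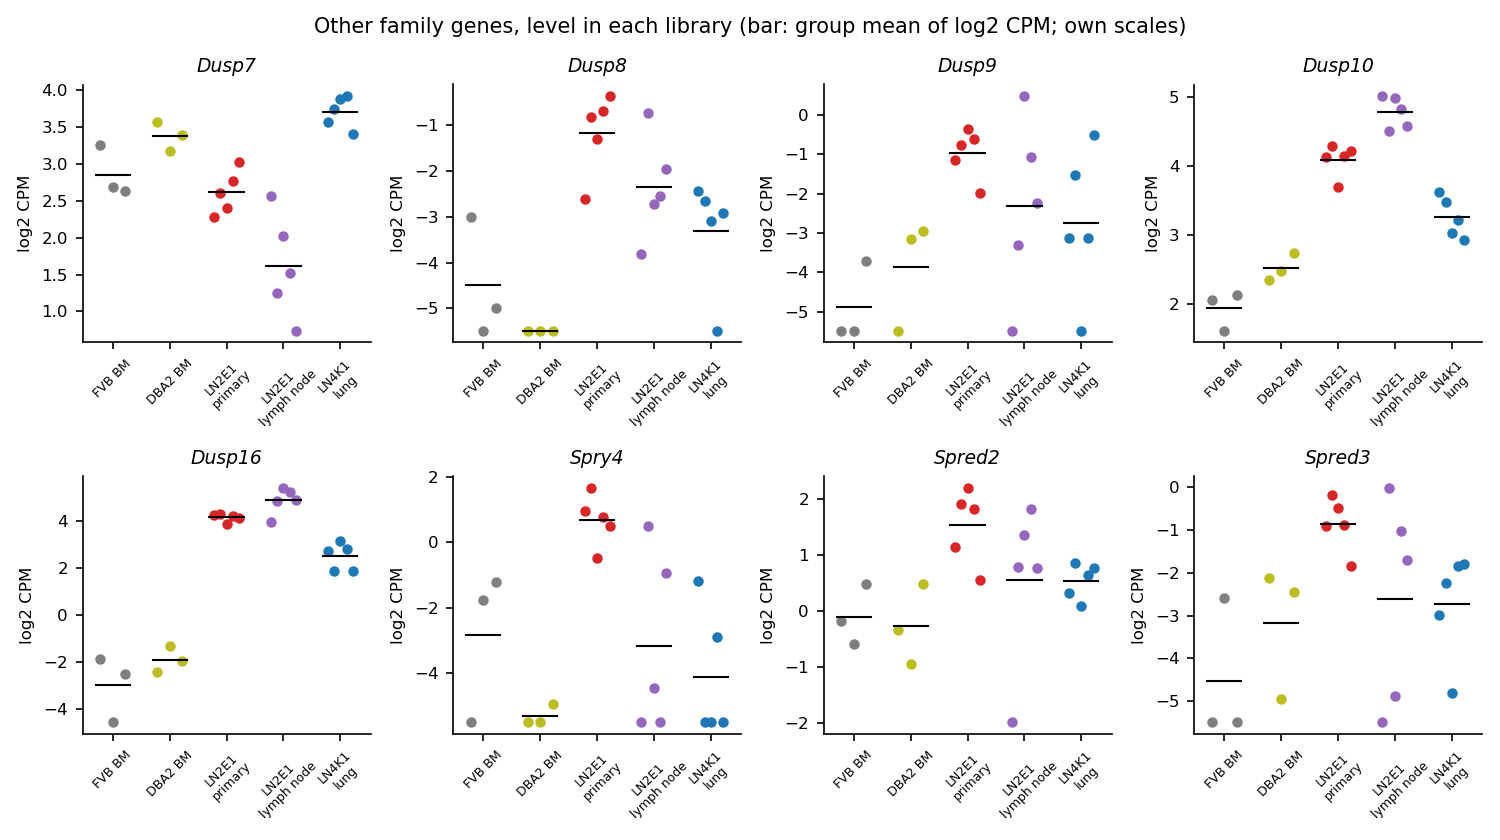
Level of 5 other MAPK phosphatases and 3 other Sprouty or SPRED genes in each library as log2 CPM (vertical axis; a different scale in each panel) by group, with the group mean of log2 CPM as a bar. Dusp16 is at 3.62 CPM or more in every TIM library and at 0.379 CPM or less in every BM IM library.

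Dusp7, a cytoplasmic phosphatase of ERK like Dusp6, missed the threshold in each comparison with BM IMs, at log2 fold changes of -0.26 (SE 0.23), -1.12 (SE 0.46) and 0.27 (SE 0.18) and adjusted p of 0.352, 0.0844 and 0.332. Dusp8 and Dusp9 rose in primary tumor TIMs from at most 9 counts per FVB BM IM library to between 13 and 65 and between 20 and 65 counts. Of the other Sprouty and SPRED genes, the 3 tested rose in primary tumor TIMs, beside 33.3% of all genes tested. None passed in lymph node or LN4K1 lung TIMs, and Spry3 had no counts in any of the 21 libraries. Spry4 was at 0, 0.275 and 0.406 CPM in FVB BM IMs and at 1.92, 3.13, 0.690, 1.69 and 1.39 CPM in primary tumor TIMs (log2 fold change 2.91, SE 1.02, adjusted p = 0.0308). Spred2 rose by 1.67 (SE 0.46, adjusted p = 0.0101) and Spred3 by 3.53 (SE 1.35, adjusted p = 0.0435) on the log2 scale in the same comparison. Fibroblast genes were highest in the same group, and their part was not tested.

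The rest of the pathway was described with lists of its genes. Of 18 genes of the Ras-ERK cascade, 7 rose and none fell in primary tumor TIMs, 7 rose and none fell in lymph node TIMs, and 4 rose and 1 fell in LN4K1 lung TIMs, with a median log2 fold change of 0.23, 0.38 and 0.33 beside 0.08, -0.04 and 0.03 over all genes tested. The shares that rose were 38.9%, 38.9% and 22.2%, beside 33.3%, 20.2% and 13.9% of all genes tested. The shares of all genes apply to the lists below as well. Of 14 genes that respond to ERK, 11 rose and 1 fell in primary tumor TIMs, 8 of 12 tested rose and 2 fell in lymph node TIMs, and 6 rose and none fell in LN4K1 lung TIMs. Ccnd1, which encodes cyclin D1, rose by log2 fold changes of 5.05 (SE 0.61), 5.35 (SE 0.80) and 3.43 (SE 0.50), with adjusted p of 0.000103, 0.000580 and 0.000921. From primary tumor to lymph node TIMs, 4 of 13 of these genes fell and none rose, led by Egr1 (-1.55, SE 0.20, adjusted p = 0.000976), Myc (-1.44, SE 0.23, adjusted p = 0.00312) and Fos (-1.33, SE 0.12, adjusted p = 0.000167). Egr1, Fos, Fosb, Ier2 and Junb stand on this list and on that of digestion-induced genes.

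Of 12 other inhibitors of Ras and ERK, 7 rose and 1 fell in primary tumor TIMs, 5 rose and 1 fell in lymph node TIMs, and 2 rose and 1 fell in LN4K1 lung TIMs. Errfi1, an inhibitor of the EGF receptor, was at 9.29 ± 2.87 CPM in FVB BM IMs and at 127 ± 26.3 CPM in primary tumor TIMs, and rose by log2 fold changes of 3.76 (SE 0.27), 3.35 (SE 0.38) and 2.27 (SE 0.18), with adjusted p of 3.29e-06, 9.58e-05 and 2.00e-05. Dok2, an adaptor that recruits Ras GTPase-activating protein, rose by 3.75 (SE 0.19), 4.08 (SE 0.33) and 2.16 (SE 0.22), with adjusted p of 4.82e-07, 1.25e-05 and 0.000120. Of 12 receptors that feed the cascade, 9 rose in primary tumor, 8 in lymph node and 2 in LN4K1 lung TIMs, and 1 fell in the last. Fgfr1 and Egfr rose by log2 fold changes of 7.52 (SE 0.76, adjusted p = 2.95e-05) and 6.31 (SE 1.22, adjusted p = 0.00154) in primary tumor TIMs, from at most 0.0685 and 0.0571 CPM in FVB BM IMs to 7.89 ± 3.30 and 1.53 ± 1.0 CPM. In that group the fibroblast sum was also highest. Of 14 genes of the p38 and JNK cascades, 7 rose and 2 fell in primary tumor TIMs, 5 rose and 1 fell in lymph node TIMs, and 4 rose and 1 fell in LN4K1 lung TIMs, among them Map3k8, an activator of MEK downstream of Toll-like receptors, at 1.37 (SE 0.15, adjusted p = 7.35e-05) in lymph node and 1.51 (SE 0.24, adjusted p = 0.00144) in LN4K1 lung TIMs.

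**Figure D5:**
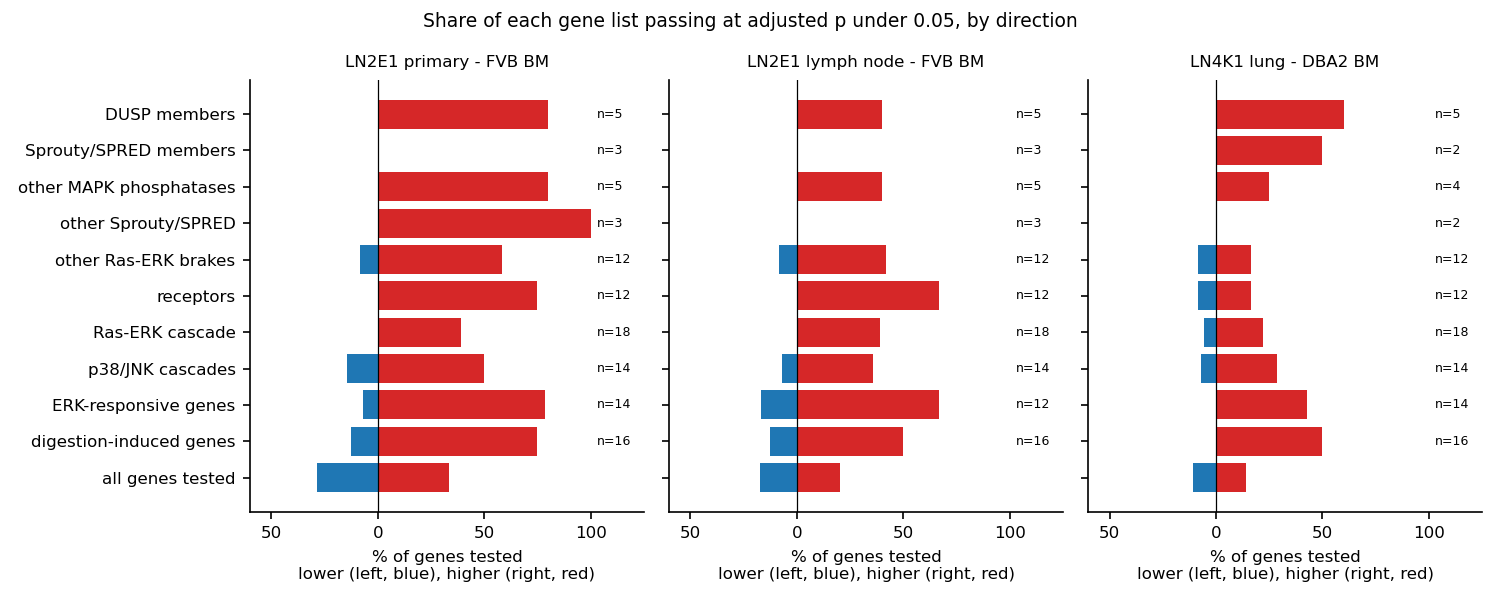
Share of the genes tested in each list (vertical axis) that passed at an adjusted p under 0.05 as higher (red, right) or lower (blue, left), in percent on the horizontal axis, for TIMs against BM IMs of the same strain in 3 comparisons, with the number tested beside each bar and all genes in the lowest row. The 5 DUSP members reach 80%, 40% and 60% higher, beside 33.3%, 20.2% and 13.9% over all genes. The Sprouty and SPRED members reach 0% of 3 tested, 0% of 3 tested and 50% of 2 tested.

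Genes with the pattern most like each member were named by the smallest root mean square difference in log2 CPM, centred on each gene's mean over the 21 libraries, among the 8012 genes whose log2 CPM averaged over 3. Dusp1 was nearest to Btg2 (0.28) and Atf3 (0.30), both of which stand on the list of digestion-induced genes, against its own SD of 0.63. Dusp6 was nearest to Ptger4 (0.23) and Tlr2 (0.27), against an SD of 0.72, and Spred1 to Il15ra (0.40) and Ms4a4c (0.47), against an SD of 0.99. For Dusp2 the nearest were Nupr1 (0.60) and Mcl1 (0.63), and for Dusp4 Carm1 (0.72) and Dnajc16 (0.76). For Dusp5 the nearest, Serpina3f (1.18) and Pydc3 (1.20), still differed by over 1 log2 unit, and for Spry1 and Spry2, whose counts were low, the differences were between 1.04 and 1.47. These are descriptions over libraries that share depth, group and processing.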

How the data were processed

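The authors trimmed reads with BBDuk, aligned them to mm10 with BBMap and deposited raw counts per gene made with featureCounts (SAMtools 1.8 and featureCounts 1.5.2 in the submitters' processing notes); libraries were not stranded. Every count was used as deposited. Genes were matched by symbol, and older symbols stood for Adgre1, Chil3, Hras and Siglecf; Ighm and Trac were not analysed here. CPM used TMM factors over 21 libraries and log2 CPM a prior count of 2. The fit of a comparison held only the libraries compared and used edgeR 4.0.16 in R 4.3.3 (default filter with a minimum count of 10 and a total of 15, robust quasi-likelihood test, Benjamini-Hochberg adjustment over all genes tested; 6 comparisons). Alternatives were DESeq2 1.42.0, its size factors, other filters, 1 fit of all 5 groups, a replicate block and leaving out each library. Replicate numbers were not treated as pairs: at most 2 of 3 pairs of libraries with the same number correlated above 0.1 in a comparison. Lymph node TIM and FVB BM IM libraries still correlated best with their own number in 5 of 6 cases. BM IMs came from mice without tumor, so these libraries cannot share a mouse, and whether they shared a processing batch was not settled. The labels do not say whether primary tumor and lymph node libraries of the same number came from the same mouse. No replicate pair was identical. Lengths and locations were from GENCODE vM21, and promoters, found for 7 of 8 genes, from RefSeq (GRCm38.p6). Named genes were the 8, their family relatives, and from each pathway list up to 3 genes with the largest change among those that passed. The 8 genes and all lists were chosen with earlier results of these data known. The method was tested on simulated counts.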

Additional observations from a re-analysis of the deposited data

Results flagged for a closer look

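Among 24 groups of 5 libraries (8 genes in 3 TIM groups), 3 held a library whose gap to its nearest neighbor, as a share of the range of log2 CPM in the group, exceeded Dixon's critical value of 0.71, and chance alone flags about 1 group in 20. Dusp1 was highest in primary tumor replicate 1, at 5232 CPM against 3866 CPM in the next library (a ratio of 0.753). Dusp1 was lowest in lymph node replicate 3, at 1998 CPM against 2738 CPM (0.730). Dusp4 was lowest in LN4K1 lung replicate 3, at 0.108 CPM and 8 counts against 1.38 CPM (0.869), and that library also differed most from its group over all genes, with squamous genes at 1.19 CPM in sum against between 40.1 and 72.4 CPM in the other 4 libraries.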

How the results depend on the processing

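Over all comparisons, 662 of 736 alternative values of a member's fold change kept direction and side of the threshold, 19 fell short of it, 23 newly passed it and 32 reversed. The cause was not tested unless the alternative itself shows it. Leaving out 1 library gave log2 fold changes between -0.57 and 1.45 for Dusp2 and between -0.18 and 0.73 for Spry1 in primary tumor TIMs, between -0.014 and 0.48 for Dusp1 and between -0.58 and 1.42 for Dusp2 in lymph node TIMs, between -0.16 and 0.28 for Dusp2 and between -0.29 and 0.19 for Dusp4 in lymph node against primary tumor TIMs, and between -1.35 and 0.64 for Dusp2 between strains. For the interaction the ranges were -0.21 to 0.44 for Dusp1, -0.44 to 0.45 for Dusp4, -0.018 to 0.17 for Dusp6, -2.71 to -0.80 for Dusp2 and -0.27 to 0.92 for Spry2.

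Replicate numbers were not treated as pairs in the main fits. With the replicate block, Dusp2 was at 0.25 and Spry1 at -0.17 in primary tumor TIMs, Dusp2 at 0.65 and Spry2 at -1.52 in lymph node TIMs, and Dusp2 at 0.088 in lymph node against primary tumor TIMs. The block left 1 of the 7 genes called in LN4K1 lung TIMs, 1 in lymph node against primary tumor TIMs and 2 between strains, and no DEG (0) in primary tumor and in lymph node TIMs; over all genes it called 5954, 1324 and 533 in the primary tumor, lung and lymph node against primary tumor comparisons. Libraries correlated best with their own number in 1 of 6, 5 of 6, 4 of 6, 2 of 10 and 0 of 6 cases in the 5 comparisons of 2 groups.

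In primary tumor TIMs the member DEGs were 2 in a fit of all 5 groups, 3 in DESeq2 with or without shrinkage, and between 1 and 2 with a library left out. In lymph node TIMs 4 members passed with 10 counts asked in every library, in the fit of all 5 groups and in DESeq2 with or without shrinkage, Dusp4 and Spred1 being added. In LN4K1 lung TIMs between 2 and 5 passed with a library left out, and DEGs numbered 1 in the fit of all 5 groups, 3 in DESeq2 and between 0 and 1 with a library left out. In lymph node against primary tumor TIMs 1 passed in the fit of all 5 groups. Between strains 2 passed with DESeq2's size factors, with 10 counts in every library and in DESeq2, and between 0 and 1 with a library left out. The interaction had 1 member in DESeq2 and between 0 and 1 with a library left out, Dusp2 without FVB BM IM replicate 3 (adjusted p = 0.0360). A prior count of 0.5 moved 1 of 40 group means of log2 CPM, that of Spry2 in DBA2 BM IMs. Over all genes, DESeq2 without shrinkage called 4025, 2419, 1600, 483 and 793 DEGs in the 5 comparisons of 2 groups, against 1879, 758, 405, 4 and 52, and the block called none in any of them; with a library left out they lay between 938 and 2031, 307 and 977, 115 and 840, 0 and 2, and 0 and 189.

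Low counts limit Spry2, which had 3 counts or fewer in libraries of 3 groups, and Spry1 had none in 3 of 5 lymph node libraries. With 3 BM IM libraries a strain, several calls rest on each of them, as given beside Dusp2 and Dusp5. Digestion, tissue and other sorted cells cannot be separated from the comparison of TIMs with BM IMs.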
